A study of Mus musculus with 9 samples.

Results

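Gabra4, Gabrb2 and Gabrd encode the alpha4, beta2 and delta subunits of GABA-A receptors, the chloride channels opened by the inhibitory transmitter GABA. They were taken by name, with earlier results of these data known, as the subunits of the tonic-inhibition receptor of thalamic relay neurons. They are 3 of the 15 GABA-A subunit genes and of the 18956 gene symbols in the count table. All 3 passed the filter on low counts. The RNA came from bulk brain tissue of BALB/c mice, labelled as anterior paraventricular thalamus (aPVT), a nucleus at the dorsal midline of the thalamus. There were 3 groups with 3 libraries in each. The group called smSDS_SHNK went through social defeat stress (smSDS) over 5 days and received (2S,6S)-HNK, or hydroxynorketamine, which is formed from ketamine in the body. The group called smSDS_SAL went through the same defeat and was given saline. The group called NS was not stressed and was given saline, so no group combined the compound with the absence of stress. Dose, sex, age and the time between treatment and dissection are not stated in the labels used here. Whether replicate libraries represent different animals is not stated, so the p-values reflect only how far these particular libraries scattered.

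A GABA-A receptor is a ring of 5 subunits, usually of the alpha and beta classes with a gamma or a delta subunit. Receptors with a gamma subunit mostly gather at synapses and carry brief inhibitory currents. Receptors of alpha4, beta2 and delta subunits sit outside the synapse in thalamic relay neurons, where they bind the low GABA of the extracellular space, carry a steady (tonic) inhibitory current and respond to neurosteroids. Tonic inhibition holds the membrane potential of relay cells down and bears on whether they fire in bursts or single spikes. The series title names GABAergic inhibition of aPVT glutamatergic neurons, and the comparisons below address how the RNA of these 3 subunits stood after stress and after the compound.

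Gabra4 lies on the minus strand at chr5:71569734-71658308, Gabrb2 on the plus strand at chr11:42419515-42632591 and Gabrd at chr4:155384979-155398098 (RefSeq, GRCm38.p6). Promoter windows were matched for Gabra4 (1 window) and Gabrb2 (3 windows). Gabra4 and Gabrb2 were both higher with the compound than with saline, as was Gabrd, for which no window was matched. The 2 stretches shown are upstream of the start in the Gabra4 window and of the start in the first Gabrb2 window. The latter start lies inside the RefSeq span of Gabrb2, not at its edge. Both stretches come from RefSeq (GRCm38.p6), are written 5′ to 3′ on the gene's own strand, and capitals mark the TATA box motif TATAAA. The Gabra4 stretch is chr5:71658364-71658558 on the minus strand (195 bases) and the Gabrb2 stretch is chr11:42420320-42420439 on the plus strand (120 bases). The Gabra4 stretch stops short of its start, because a Gabrb1 exon (chr5:71658291-71658363) covers the bases between and they are not printed. The Gabrb2 stretch runs up to its start. The motif search below included the bases not printed.
Gabra4: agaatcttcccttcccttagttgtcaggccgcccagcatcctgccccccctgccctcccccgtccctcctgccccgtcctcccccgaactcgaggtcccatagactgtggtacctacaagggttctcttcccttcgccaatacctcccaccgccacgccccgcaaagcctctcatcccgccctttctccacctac
Gabrb2: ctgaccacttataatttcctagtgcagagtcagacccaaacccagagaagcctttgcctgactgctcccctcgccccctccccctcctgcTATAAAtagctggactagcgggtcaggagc

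In the 250 bases before each start, on both strands, 7 motifs were searched in the 4 windows. The motifs were TATAAA, the cyclic AMP response element TGACGTCA, the EGR motif GCGTGGGCG, the TCF/LEF motif CTTTGAT, the ROR motif AGGTCA, the E-box CACGTG and the glucocorticoid response element, AGAACA and TGTTCT with any 3 bases between them. The 1 match was TATAAA in the first Gabrb2 window, beginning at position -30 from the start. Of all 32851 RefSeq mouse windows, 12.4% held TATAAA, 1.55% TGACGTCA, 0.536% GCGTGGGCG, 3.21% CTTTGAT, 14.0% AGGTCA, 6.02% CACGTG and 0.00913% the glucocorticoid response element. A match describes letters in a window and is not a binding site, and the absence of a match says nothing of the factor.

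Library totals ran from 32307869 to 51569143 counts, and the members held 3780 to 17532 counts in a library, so the spread between libraries rather than counting error set their precision. Levels are given as CPM, the count relative to the library's total after TMM scaling in edgeR. The table listed no symbol with a zero in any library. Markers of thalamic relay neurons were abundant, with a mean over 12 markers between 7.30 and 7.81 log2 CPM. Of the aPVT markers, Calb2, which encodes calretinin, averaged 1838 ± 193 CPM in smSDS_SHNK, 2096 ± 371 CPM in smSDS_SAL and 2033 ± 113 CPM in NS (SD, n = 3 each). Gal lay between 18.65 and 27.08 CPM, while Drd3 stayed under 1 CPM in every library and Drd2 between 3.92 and 7.65 CPM. Markers of the medial habenula, which borders the aPVT, separated the groups. Their mean over 12 markers was 0.88 ± 0.33 log2 CPM in smSDS_SHNK, 4.93 ± 0.83 in smSDS_SAL and 2.66 ± 0.62 in NS, and no group overlapped another.

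Gabra4 is the alpha subunit of the tonic receptor of relay cells. It had 310.3, 348.7 and 400.6 CPM in the 3 smSDS_SHNK libraries, 247.9, 224.8 and 205.0 CPM in the smSDS_SAL libraries and 290.3, 271.5 and 241.8 CPM in the NS libraries. Every smSDS_SHNK library was above every library of the other groups, and the lowest NS library fell inside the range of smSDS_SAL. Gabra4 averaged 353 ± 45.3 CPM in smSDS_SHNK, 226 ± 21.4 CPM in smSDS_SAL and 268 ± 24.5 CPM in NS (SD, n = 3 each).

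Gabrb2 encodes the beta subunit that also serves many synaptic receptors. It had 155.8, 164.9 and 163.3 CPM in smSDS_SHNK, 110.1, 97.75 and 106.4 CPM in smSDS_SAL, and 125.0, 134.7 and 114.5 CPM in NS. The 3 groups did not overlap: smSDS_SHNK was highest and smSDS_SAL lowest. Its means were 161 ± 4.87 CPM in smSDS_SHNK, 105 ± 6.36 CPM in smSDS_SAL and 125 ± 10.1 CPM in NS (SD, n = 3 each).

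Gabrd encodes the delta subunit, which takes the place of gamma in receptors outside the synapse. It had 144.2, 156.2 and 153.1 CPM in smSDS_SHNK, 100.2, 89.1 and 125.5 CPM in smSDS_SAL, and 135.2, 123.1 and 136.5 CPM in NS. All smSDS_SHNK libraries were above all others, whereas smSDS_SAL replicate 3, at 125.5 CPM, was above the lowest NS library and above the other 2 smSDS_SAL libraries. The means were 151 ± 6.24 CPM in smSDS_SHNK, 105 ± 18.6 CPM in smSDS_SAL and 132 ± 7.40 CPM in NS (SD, n = 3 each). For all 3 genes the order of the group means was thus smSDS_SHNK, then NS, then smSDS_SAL.

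**Figure D1:**
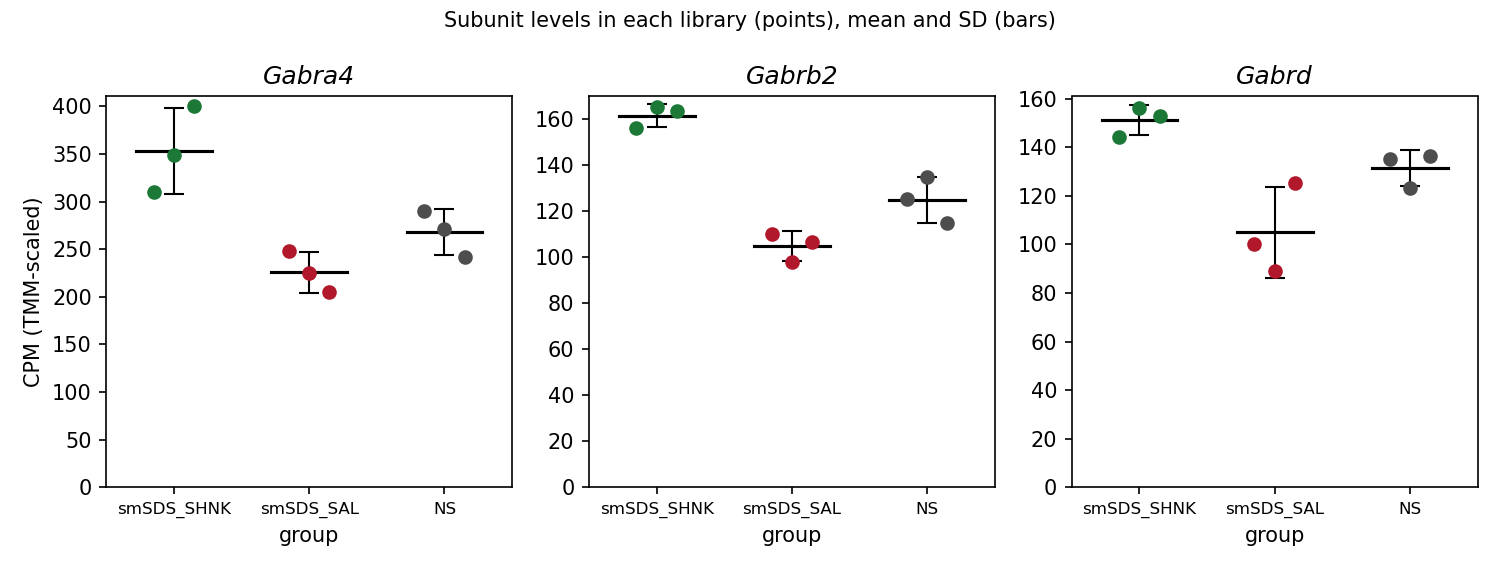
CPM after TMM scaling (vertical axis, from 0) of Gabra4, Gabrb2 and Gabrd in each library (points) by group, with the mean (horizontal line) and SD (bar) of 3 libraries. The smSDS_SHNK libraries sit above all others for each gene, from 310.3 CPM upward for Gabra4, 155.8 CPM for Gabrb2 and 144.2 CPM for Gabrd.

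After defeat stress, all 3 subunit RNAs were higher with (2S,6S)-HNK than with saline. Gabra4 rose 1.56-fold (log2 fold change 0.64 ± 0.11 SE, adjusted p = 0.00496), Gabrb2 1.54-fold (0.62 ± 0.083, adjusted p = 0.00134) and Gabrd 1.44-fold (0.53 ± 0.11, adjusted p = 0.0141). These are values of edgeR's quasi-likelihood test with Benjamini-Hochberg adjustment over 18194 genes. In this comparison the test called 6.41% of all genes, made up of 2.45% higher and 3.96% lower, and 14.4% of all genes had smSDS_SHNK libraries that were all above the smSDS_SAL libraries, as the 3 members did. By p, Gabrb2 stood at rank 39 of the 18194 genes, Gabra4 at rank 101 and Gabrd at rank 321. These ranks belong to genes chosen with earlier results of these data known. The median log2 fold change of all genes was -0.01. Leaving out 1 library at a time kept Gabra4 (adjusted p of at most 0.0364) and Gabrb2 (at most 0.0124) past 0.05. Gabrd lost its call without smSDS_SAL replicate 2 (log2 fold change 0.42, adjusted p = 0.0623), without smSDS_SHNK replicate 2 (0.50, 0.0675) or without smSDS_SHNK replicate 3 (0.52, 0.0736).

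Between defeated and non-stressed mice given saline, none of the 3 passed the adjusted threshold in edgeR. The log2 fold changes of smSDS_SAL over NS were -0.25 ± 0.11 (SE) for Gabra4 (adjusted p = 0.463), -0.25 ± 0.083 for Gabrb2 (adjusted p = 0.229) and -0.33 ± 0.11 for Gabrd (adjusted p = 0.229). DESeq2 and limma called none of the 3 either. Unadjusted p-values from the edgeR fit were 0.0355 for Gabra4, 0.00907 for Gabrb2 and 0.00904 for Gabrd, and 3.37% of all genes were lower in smSDS_SAL at an unadjusted p under 0.05. The test called 1.17% of all genes, 1.15% as higher and 0.0165% as lower. Gabrb2, whose smSDS_SAL libraries were all below the NS libraries, shared that with 5.53% of all genes. Gabrd passed in edgeR when smSDS_SAL replicate 3 was left out (log2 fold change -0.48, adjusted p = 0.0337).

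Against non-stressed mice given saline, the defeated mice given (2S,6S)-HNK had higher values of all 3 subunits, but none passed the adjusted threshold in edgeR. The log2 fold changes of smSDS_SHNK over NS were 0.40 ± 0.11 (SE) for Gabra4 (adjusted p = 0.0921), 0.37 ± 0.083 for Gabrb2 (adjusted p = 0.0776) and 0.20 ± 0.11 for Gabrd (adjusted p = 0.348). Unadjusted p-values from the same edgeR fit were 0.00204 for Gabra4, 0.000515 for Gabrb2 and 0.0860 for Gabrd. Non-overlapping groups with smSDS_SHNK above NS, seen for all 3, occurred for 9.83% of all genes. The edgeR test called 0.00550% of genes here (1 gene, lower), 18.3% had an unadjusted p under 0.05, and limma called 0.00550%. DESeq2, an alternative, called 7.90% of the genes it adjusted, 2.68% as higher, among them Gabra4 (adjusted p = 0.0143) and Gabrb2 (adjusted p = 0.00339). Gabrb2 also passed in edgeR without NS replicate 2 (log2 fold change 0.43, adjusted p = 0.0279). Any pair of these 3 comparisons shares a group of libraries, so their values are not independent.

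Over all 3 groups at once, edgeR's F test of any difference gave an adjusted p of 0.0109 for Gabra4, 0.00353 for Gabrb2 and 0.0309 for Gabrd, and called 4.88% of all genes. Leaving out smSDS_SHNK replicate 3 ended that call for Gabra4 (adjusted p = 0.059). For Gabrd it ended without smSDS_SAL replicate 1 (0.0926), smSDS_SAL replicate 2 (0.112), smSDS_SHNK replicate 2 (0.11) or smSDS_SHNK replicate 3 (0.122).

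Within a library, the ratios between the 3 genes overlapped between the groups. The log2 ratio of Gabra4 to Gabrb2 counts was 1.12 ± 0.15 in smSDS_SHNK, 1.11 ± 0.14 in smSDS_SAL and 1.10 ± 0.10 in NS (SD, n = 3 each). The log2 ratio of Gabrd to Gabra4 counts was -1.22 ± 0.15 in smSDS_SHNK, -1.12 ± 0.35 in smSDS_SAL and -1.02 ± 0.17 in NS. That of Gabrd to Gabrb2 counts was -0.09 ± 0.017 in smSDS_SHNK, -0.01 ± 0.22 in smSDS_SAL and 0.08 ± 0.19 in NS. All groups overlapped for each ratio, and in exact two-sided permutation tests over 9 comparisons the unadjusted p was at least 0.2 and every adjusted p was 1.0. With 3 libraries against 3, the smallest p these tests can give is 0.1.

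Per kilobase of exon sequence (union of the gene's exons, GENCODE M21), Gabrd and Gabra4 had the highest medians of the 15 subunits over the 9 libraries, 47.0 and 44.6 CPM per kb. Their ranges, 31.0 to 54.3 and 33.7 to 65.9 CPM per kb, overlapped each other. Gabrb2 stood seventh at 19.7 CPM per kb (15.4 to 25.9), with Gabra3 just above it at 20.6 (16.2 to 23.7) and Gabra2 just below it at 16.4 (12.6 to 19.4), and the 3 ranges overlapped. Scaled by the longest transcript instead, Gabra4 came before Gabrd (medians of 66.1 and 49.95 CPM per kb), and Gabrb2 stood at rank 5 (31.3 CPM per kb).

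Within their classes, Gabra4 and Gabrb2 took a larger share of the length-scaled counts in smSDS_SHNK than in either other group. Gabra4 made up 35.1%, 37.9% and 37.3% of the alpha subunits in smSDS_SHNK, 31.4%, 29.8% and 32.3% in smSDS_SAL, and 33.0%, 34.3% and 32.4% in NS. No pair of groups overlapped, and each exact two-sided permutation p was 0.1, the smallest that 3 against 3 allows (adjusted p = 0.18 over 9 comparisons). Gabrb2 made up 55.1% ± 2.06 of the beta subunits in smSDS_SHNK, 47.7% ± 3.15 in smSDS_SAL and 49.7% ± 1.15 in NS (SD, n = 3 each). Its smSDS_SHNK libraries were above all others (exact permutation p = 0.1, adjusted p = 0.18, against each group), and smSDS_SAL overlapped NS (exact permutation p = 0.4). Gabrd made up 53.4% ± 2.93 of the gamma and delta subunits in smSDS_SHNK, 49.5% ± 7.48 in smSDS_SAL and 54.4% ± 2.82 in NS, and all groups overlapped.

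**Figure D2:**
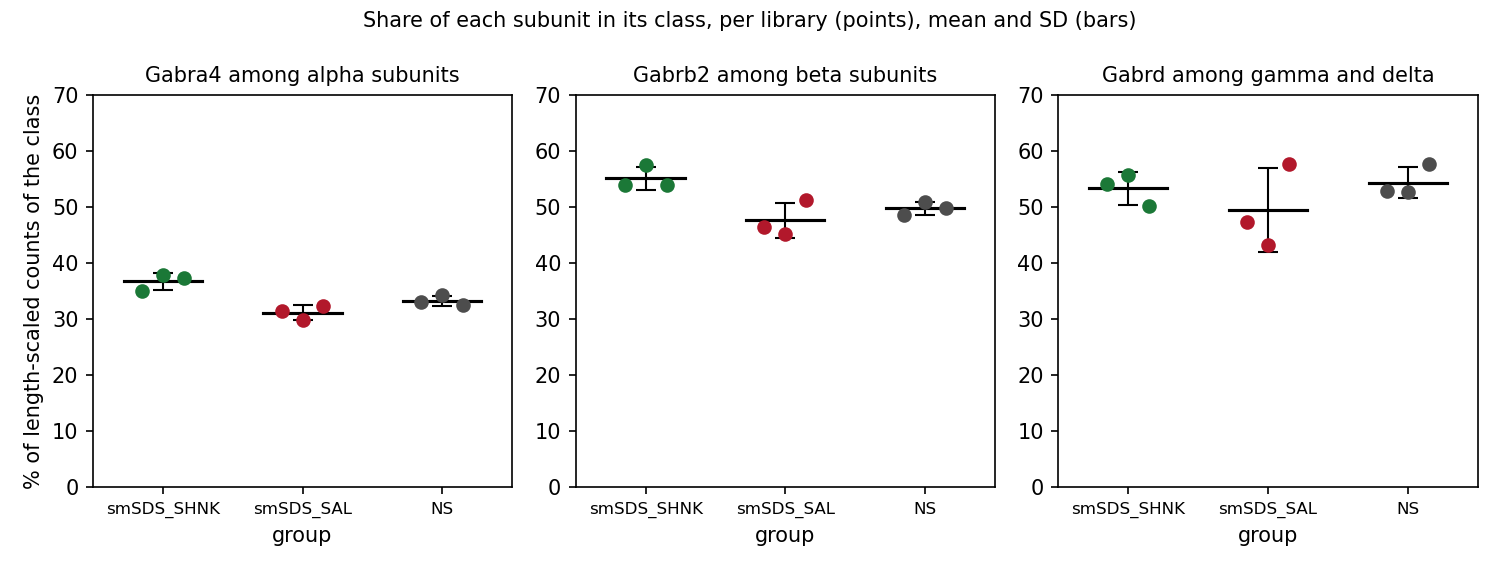
Share in percent (vertical axis, from 0) of Gabra4 among alpha, Gabrb2 among beta and Gabrd among gamma and delta subunit counts scaled by exon length, for each library (points) by group, with the mean (line) and SD (bar) of 3 libraries. Gabra4 lies between 35.1% and 37.9% in smSDS_SHNK, above all other libraries, while the Gabrd groups overlap.

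Of the other GABA-A subunits, 16 were listed, 12 were in the table and all 12 were tested; the other listed ones, Gabra6, Gabrp, Gabrr1 and Gabrr3, were not analysed here. In smSDS_SHNK against smSDS_SAL, 1 of the 12 rose and 0 fell in edgeR, against the 6.41% of all genes. DESeq2 and limma each called 2 higher, beside 5.44% of the genes DESeq2 adjusted and 5.39% of all genes in limma. Of the 12, 3 had an edgeR unadjusted p under 0.05, beside 23.3% of all genes, and 12 of 12 had a log2 fold change above 0. Their median log2 fold change was 0.16, beside -0.01 over all genes. Gabra3, Gabrb1 and Gabra5, which also form receptors in forebrain neurons, had log2 fold changes between 0.19 and 0.24 and did not pass. None of the 12 passed in edgeR in smSDS_SHNK against NS (median 0.09). There 2 had an unadjusted p under 0.05, beside 18.3% of all genes. DESeq2 called 2 higher, beside 2.68% of the genes it adjusted, and limma 0. None of the 12 passed in smSDS_SAL against NS either (median -0.06, 0 in DESeq2 and limma). There 0 had an unadjusted p under 0.05, beside 9.45% of all genes.

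Gabra4 lies in a cluster of subunit genes whose values differed, a comparison chosen after these values were seen. On chromosome 5, Gabra4 (log2 fold change of smSDS_SHNK over smSDS_SAL 0.64) lies with Gabrb1 (0.20), Gabra2 (0.07, edgeR adjusted p = 0.829) and Gabrg1 (0.01, adjusted p = 0.973), and Gabra4 is the 1 member of that cluster that passed. The difference between neighbours was not tested. Gabra4 and Gabrb1 face away from each other, and the Gabra4 first exon shares 18 bases with a Gabrb1 exon in GENCODE M21. In RefSeq the 2 genes overlap further, as Gabrb1 begins at chr5:71657921 and Gabra4 ends at chr5:71658308. No source used here states whether counting was stranded, so reads from shared bases cannot be assigned to one of the genes.

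**Figure D3:**
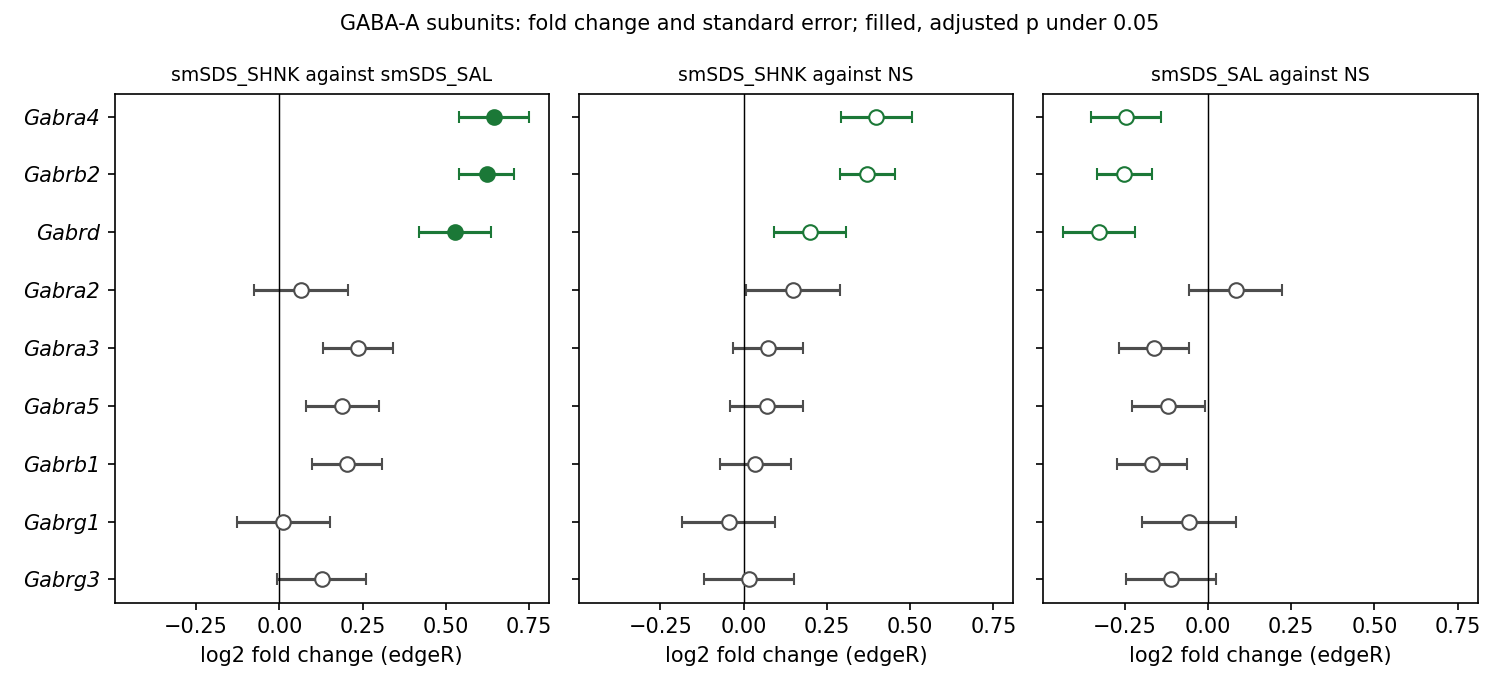
Log2 fold change (horizontal axis) with its standard error for 9 subunit genes (rows) in the 3 comparisons, Gabra4, Gabrb2 and Gabrd in green and other subunits in grey, with filled points for an edgeR adjusted p under 0.05. Filled points appear in smSDS_SHNK against smSDS_SAL only, for Gabra4 (0.64), Gabrb2 (0.62) and Gabrd (0.53); not all 12 other subunits are plotted, and the 1 of them that rose is not shown.

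Of the genes that assemble, feed or counterbalance these receptors, edgeR called a share near that of all genes (6.41%) in smSDS_SHNK against smSDS_SAL. In smSDS_SHNK against smSDS_SAL, 1 of 20 assembly, trafficking and anchoring genes rose, which was Nsf, an ATPase of membrane fusion (log2 fold change 0.30 ± 0.077, adjusted p = 0.032). In the same list 1 fell, which was Plcl1, a GABA-A receptor binding protein (-0.66 ± 0.15, adjusted p = 0.0205). Among 12 channels of thalamic firing mode, 1 rose, Kcnj3, a G-protein-gated potassium channel (0.57 ± 0.11, adjusted p = 0.0115). None of 11 genes of ambient GABA (transporters, synthesis and breakdown), 6 of neurosteroid synthesis or 9 of neuronal chloride transport passed, and their median log2 fold changes were -0.11, 0.00 and -0.03. At an edgeR unadjusted p under 0.05 these 3 lists held 2, 1 and 3 genes, beside 23.3% of all genes. DESeq2 called 0, 1 and 1 of their genes and limma 1, 1 and 2, all lower. DESeq2 called 7.08% of the genes it adjusted lower, and limma 7.68% of all genes. In smSDS_SHNK against NS and smSDS_SAL against NS none of these 5 lists had a member that passed in edgeR or limma. DESeq2 called 2 assembly, 2 ambient GABA and 1 neurosteroid gene lower in smSDS_SHNK against NS, beside 5.23% of the genes it adjusted. The edgeR unadjusted p was under 0.05 for 5 assembly, 2 ambient GABA, 2 neurosteroid, 3 chloride and 4 channel genes in smSDS_SHNK against NS, beside 18.3% of all genes. In smSDS_SAL against NS it was so for 2, 0, 0, 1 and 4, beside 9.45% of all genes.

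The genes whose profile over the 9 libraries was most like each member's were found by the root mean square difference of centred log2 CPM. For Gabra4 they were Calb1 (0.06), Vsnl1, 4921524J17Rik and Kcnip4 (0.08), 4 of the 5 most similar, among 1582 candidate genes whose mean was 3 log2 CPM or more and whose range was 0.75 times that of Gabra4 or more. For Gabrb2 they were Atp2b1 (0.06), Kctd16, Tmem41a, Eif1ad and Scn1a (0.08), among 3386 candidates. For Gabrd they were Ramp3 (0.07), Rfc4, Ckmt1, Nectin4 and Mb21d2 (0.09), among 2793 candidates. Gabrb2 was at place 19 for Gabra4 (0.11), and Gabrd at place 132 (0.21).

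Markers of relay neurons moved in the same direction as the members. In smSDS_SHNK against smSDS_SAL, 7 of 12 relay markers rose and 0 fell in edgeR, against the 2.45% of all genes called higher, with a median log2 fold change of 0.37. Examples are Plekhg1 (0.62 ± 0.085, adjusted p = 0.00169) and Prkcd, a protein kinase C of relay neurons (0.66 ± 0.14, adjusted p = 0.0151). The mean of the 12 markers was 7.77 ± 0.045 log2 CPM in smSDS_SHNK, 7.39 ± 0.076 in smSDS_SAL and 7.64 ± 0.045 in NS (SD, n = 3 each), and no group overlapped another. In smSDS_SAL against NS, 0 of 12 relay markers passed in edgeR, beside 0.0165% of all genes called lower. All 12 had a log2 fold change below 0 (median -0.23). Of the 12, 6 had an edgeR unadjusted p under 0.05, beside 3.37% of all genes that were lower at that threshold. DESeq2 called 2 of the 12 lower, beside 0.174% of the genes it adjusted, and limma 0, beside 0.00550% of all genes. The summed level of the relay markers was 3418 to 3723 CPM in smSDS_SHNK, 2736 to 2857 CPM in smSDS_SAL and 3046 to 3490 CPM in NS. In bulk tissue, fewer cells of a type and less RNA per cell cannot be told apart.

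Set against that marker mean within each library, Gabra4 was 0.69 ± 0.14 log2 units above it in smSDS_SHNK, 0.43 ± 0.15 in smSDS_SAL and 0.42 ± 0.12 in NS. Gabrb2 differed from it by -0.43 ± 0.021 in smSDS_SHNK, -0.68 ± 0.020 in smSDS_SAL and -0.68 ± 0.14 in NS. The smSDS_SHNK libraries were above all others for both genes. The share of all genes for which this held after the same subtraction was not computed. Gabrd differed from it by -0.53 ± 0.032 in smSDS_SHNK, -0.69 ± 0.20 in smSDS_SAL and -0.60 ± 0.060 in NS, and smSDS_SHNK overlapped both smSDS_SAL and NS. With the relay marker mean as a covariate in edgeR, the smSDS_SHNK over smSDS_SAL log2 fold change was 0.15 ± 0.36 (SE) for Gabra4, 0.36 ± 0.30 for Gabrb2 and -0.17 ± 0.35 for Gabrd, and none passed (adjusted p = 1.0 for each). The covariate itself separates the groups, so that fit has little information left on the group difference.

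**Figure D4:**
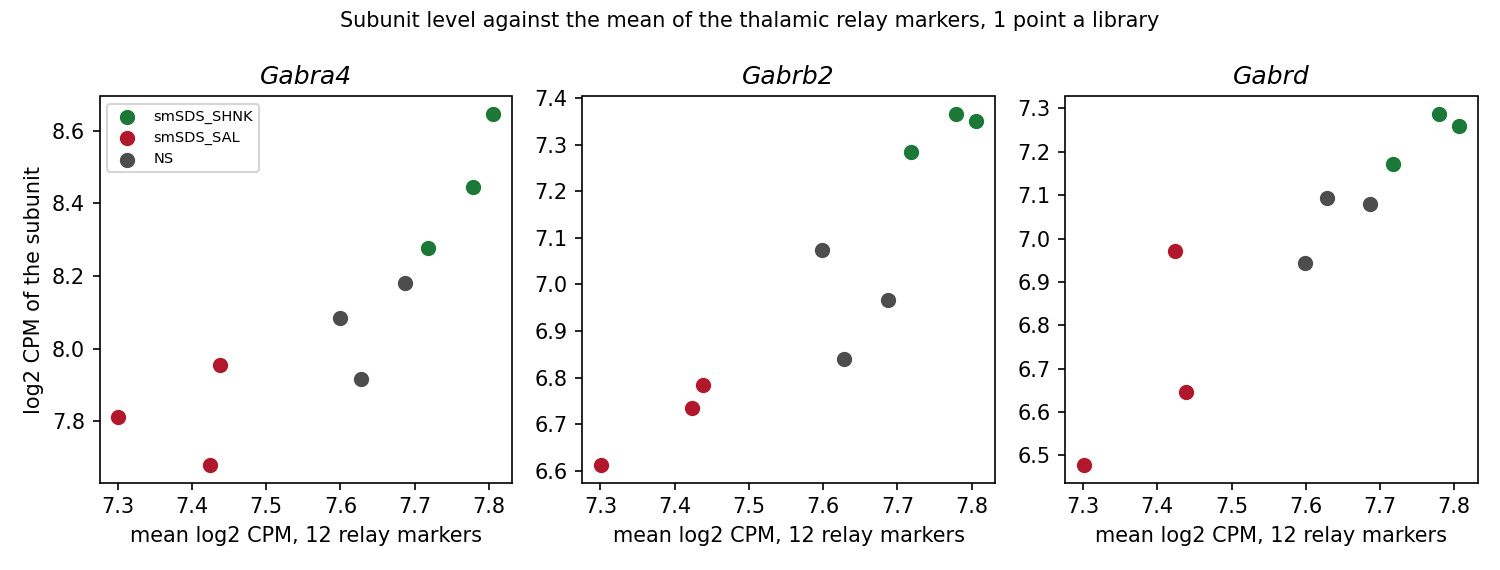
Log2 CPM of each member (vertical axis) against the mean log2 CPM of 12 thalamic relay markers (horizontal axis), 1 point a library, coloured by group. The smSDS_SHNK libraries lie at the upper right of each panel (marker mean 7.72 to 7.81) and the smSDS_SAL libraries at the left (7.30 to 7.44). The smSDS_SAL libraries are the lowest 3 for Gabrb2 only. For Gabra4 smSDS_SAL replicate 1, and for Gabrd smSDS_SAL replicate 3, lies above the lowest NS library.

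Habenula markers moved the other way. Of 14 listed, 12 were in the table and tested. In smSDS_SHNK against smSDS_SAL 12 of 12 fell in edgeR, against the 3.96% of all genes called lower. In smSDS_SAL against NS 11 of 12 rose in edgeR, against the 1.15% of all genes called higher there. The summed level of the habenula markers was 69.0 to 82.9 CPM in smSDS_SHNK, 295 to 877 CPM in smSDS_SAL and 108 to 168 CPM in NS. The smSDS_SAL library with the highest habenula marker mean (replicate 2, 5.76 log2 CPM) had the lowest Gabrb2 and Gabrd of all 9 libraries, whereas Gabra4 was lowest in smSDS_SAL replicate 3 (4.94 log2 CPM). With the habenula marker mean as a covariate in edgeR, the smSDS_SHNK over smSDS_SAL log2 fold change was -0.02 ± 0.32 (SE) for Gabra4, 0.12 ± 0.26 for Gabrb2 and 0.33 ± 0.38 for Gabrd, and none passed (adjusted p = 1.0 for each). This covariate also separates the groups, so the compound and the makeup of the dissected tissue cannot be told apart by it.

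Markers of other cell types moved too. In smSDS_SHNK against smSDS_SAL, edgeR called 6 of 10 astrocyte, 3 of 8 ependyma, 3 of 7 choroid plexus, 3 of 9 hippocampus and dentate gyrus, 1 of 7 striatum and 1 of 8 endothelium and mural cell markers lower, and 3 of 8 pan-neuronal and 1 of 7 reticular thalamus and GABA neuron markers higher, against 3.96% of all genes called lower and 2.45% called higher. Median log2 fold changes were -0.92 for ependyma, -0.65 for choroid plexus, -0.58 for hippocampus and dentate gyrus and -0.39 for astrocyte markers. None of the 8 aPVT, 10 oligodendrocyte, 5 oligodendrocyte precursor or 8 microglia markers passed in edgeR. Of them 3, 3, 1 and 1 had an unadjusted p under 0.05, beside 23.3% of all genes. DESeq2 called none of these markers and limma called 2 aPVT markers lower, beside 7.68% of all genes. The summed level of the 10 astrocyte markers was 3884 to 4252 CPM in smSDS_SHNK, 4422 to 5696 CPM in smSDS_SAL and 4958 to 5305 CPM in NS. In smSDS_SAL against NS, edgeR called 4 ependyma, 2 astrocyte, 2 hippocampus and dentate gyrus, 1 choroid plexus and 1 striatum marker higher, against 1.15% of all genes. The part of these cell types in the changes of Gabra4, Gabrb2 and Gabrd was not tested.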

How the data were processed

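The authors deposited raw, unnormalized read counts for each gene symbol in 1 table. Per the labels, the input was 100 ng of total RNA and the kits were SMARTer Ultra low RNA and TruSeq. The submitters' processing notes list Trimmomatic 0.38, HISAT2, StringTie and the builds GRCm38 and mm10, without roles or further versions, and strandedness is not given in the sources used here. Libraries were grouped by their labels and all 9 were used.

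With filterByExpr at a minimum count of 10 and a minimum total of 15, 18194 genes were tested and 762 were not. Counts were TMM-scaled and fitted in 1 edgeR 4.0.16 quasi-likelihood model over the 3 groups (R 4.3.3), with Benjamini-Hochberg adjustment over all tested genes and a threshold of 0.05. The common biological coefficient of variation was 0.132. Log2 CPM used a prior count of 2. Ratios and shares were compared by exact permutation over libraries. No replicate pair agreed within sampling noise. The pipeline was tested on simulated data.

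The members and lists were chosen with earlier results of these data known. Named genes were the 3 members, up to 4 called genes per list and comparison, 6 partner subunits, and the 5 most similar profiles per member, of which the text gives those that bear on the members; a few genes it picks are not reported here. Alternatives were DESeq2 1.42.0, limma 3.58.1 with voom and weights per sample, edgeR with upper-quartile scaling or with the size factors of DESeq2, omission of the low-count filter, a minimum of 1 CPM in 3 libraries, a replicate block, a fit of the 2 compared groups, the relay or habenula marker mean as a covariate, and leaving out each library; for ratios and shares they were 1 added count, no length scaling and the longest transcript, the last chosen after the data were seen.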

Additional observations from a re-analysis of the deposited data

How the results depend on the processing

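Apart from the covariate fits, Gabra4, Gabrb2 and Gabrd passed in smSDS_SHNK against smSDS_SAL under 8 of 8 alternatives, with adjusted p-values up to 0.0103, 0.00396 and 0.0167, and none passed in smSDS_SAL against NS. In smSDS_SHNK against NS, DESeq2 called Gabra4 (log2 fold change 0.41) and Gabrb2 (0.38). Genes called in smSDS_SHNK against smSDS_SAL, smSDS_SHNK against NS and smSDS_SAL against NS were 1167, 1 and 213 in edgeR, 2004, 1004 and 470 in DESeq2, and 2377, 1 and 102 in limma. In smSDS_SHNK against NS, 0 genes were called in edgeR with upper-quartile scaling, no filter or the 1 CPM filter, and 9 in a fit of the 2 groups only; for these 0 counts, the main edgeR fit had 3338 genes at an unadjusted p under 0.05. Scaling alternatives moved the median of all genes by at most 0.0216 (log2).

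Replicate numbers are shared between groups, but same-numbered libraries deviated together with correlations of only -0.1 to 0.106, so they share a number and no known pairing. With a replicate block the counts were 878, 6 and 177, and the log2 fold changes of smSDS_SHNK over smSDS_SAL were 0.65 for Gabra4, 0.62 for Gabrb2 and 0.54 for Gabrd, with no change of call for any member.

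With the habenula marker mean as a covariate the counts were 1, 1 and 0. The smSDS_SHNK over smSDS_SAL log2 fold change was -0.0197 for Gabra4, 0.125 for Gabrb2 and 0.33 for Gabrd, and that of smSDS_SAL over NS was 0.129 for Gabra4 and 0.0298 for Gabrb2. With the relay marker mean the counts were 0, 0 and 0. The smSDS_SHNK over smSDS_SAL value was 0.15 for Gabra4, 0.36 for Gabrb2 and -0.17 for Gabrd, that of smSDS_SAL over NS was 0.0778 for Gabra4 and 0.128 for Gabrd, and that of smSDS_SHNK over NS was -0.0436 for Gabrd. The adjusted p of any difference was 0.881, 0.861 and 0.949 (habenula) and 0.848, 0.782 and 0.994 (relay) for Gabra4, Gabrb2 and Gabrd. Both covariates separate the groups.

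Leaving out 1 library gave 176 to 1385 genes called in smSDS_SHNK against smSDS_SAL, 0 to 749 in smSDS_SHNK against NS and 40 to 306 in smSDS_SAL against NS. In smSDS_SHNK against smSDS_SAL the count was 653, 367 and 718 without smSDS_SAL replicate 1, 2 and 3, and 238 and 176 without smSDS_SHNK replicate 2 and 3. The 749 came without NS replicate 2. In smSDS_SAL against NS it was 50 and 71 without NS replicate 1 and 2, and 40 without smSDS_SAL replicate 2. Log2 fold changes ran from 0.42 to 0.68 for Gabrd in smSDS_SHNK against smSDS_SAL, from 0.31 to 0.43 for Gabrb2 in smSDS_SHNK against NS and from -0.48 to -0.22 for Gabrd in smSDS_SAL against NS. The adjusted p of any difference ran from 0.00513 to 0.059 for Gabra4 and from 0.00851 to 0.122 for Gabrd. Some differences of ratios and shares that no test called changed sign. The log2 ratio of Gabrd to Gabra4 differed by -0.21 to 0.10 in smSDS_SHNK against smSDS_SAL and by -0.30 to 0.015 in smSDS_SAL against NS. That of Gabrd to Gabrb2 differed by -0.146 to 0.0409 in smSDS_SHNK against smSDS_SAL. That of Gabra4 to Gabrb2 differed by -0.0685 to 0.0816 in smSDS_SHNK against smSDS_SAL, by -0.0646 to 0.0856 in smSDS_SHNK against NS and by -0.0438 to 0.0839 in smSDS_SAL against NS. The share of Gabrd differed by -2.23 to 0.62 percentage points in smSDS_SHNK against NS. The cause of these shifts was not tested.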
